A study of Mus musculus with 6 samples.

Results

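The mitochondrial genome transcripts are the genes annotated on chromosome M, the small circular genome carried inside mitochondria. They were taken as every row of the 6 gene tables placed on chrM, which gave 37 of 45777 gene IDs. These are 13 protein-coding genes, 2 rRNA genes and 22 tRNA genes, and each library listed all 37. The rule rests on position alone and uses no measured value.

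The mitochondrial genome encodes a small set of membrane subunits of the respiratory chain, together with the rRNAs and tRNAs that translate them. Both strands are transcribed as long polycistronic RNAs, and the tRNAs that lie between the genes are cut out to release the mRNAs and rRNAs. All other subunits, and the proteins of transcription, RNA maturation and translation, are encoded in the nucleus and imported. Ovarian cells depend on this system: oocytes carry very large numbers of mitochondrial genomes, and steroid-producing cells make the first step of steroid synthesis inside mitochondria.

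Ovaries of wild-type BDF1 mice, a hybrid laboratory strain, were profiled by mRNA sequencing in 3 groups of 2 libraries. The groups were mice of 65 weeks injected with MIT-001, mice of 65 weeks injected with PBS, and mice of 8 weeks injected with PBS. MIT-001 is a compound that enters mitochondria and scavenges reactive oxygen species there, and it was given into the abdomen at 0.5 mg/kg for 7 days. They are called old MIT-001, old PBS and young PBS. The labels do not tie libraries to animals, so p-values measure only the spread between these libraries, and no young MIT-001 group was analysed here.

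Depth was similar across libraries, at 6.34 to 7.14 gigabases of aligned reads. The tissue label was met by genes of steroid-producing cells, such as Cyp11a1, which starts steroid synthesis, at 9021 to 20654 TPM (an abundance scaled for gene length and for the library total). The age labels were not met in the PBS groups by Gdf9, an oocyte growth factor known to decline as follicles are used up. Its levels were 22.8 and 9.35 TPM in old MIT-001 libraries. They were 116 and 108 TPM in old PBS libraries and 73.3 and 9.51 TPM in young PBS libraries. The 10 oocyte genes summed to 87.2 and 44.1 TPM in old MIT-001 libraries, 467 and 499 TPM in old PBS libraries and 315 and 36.5 TPM in young PBS libraries. Groups are therefore named as labelled, and each direction holds for the libraries as labelled only. Of the 3 groups, young PBS had the pair of libraries least alike, with a Pearson correlation of 0.917 across all tested genes on the log2 scale, against 0.955 within old MIT-001 and 0.976 within old PBS. Each young PBS library was closer to libraries of other groups than to its own replicate. Replicate 1 was closest to old PBS replicate 1 and old MIT-001 replicate 1 (0.940 each), and replicate 2 to old MIT-001 replicate 2 (0.937). Its replicate 1 also stood apart in TPM divided by FPKM, the authors' second abundance value, at 1.89 against 2.26 to 2.31 in the other 5 libraries.

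The layout of the genome decides how its transcripts can be separated, so the stretches where neighbours share bases are shown. Of the 37 genes, 9 neighbouring pairs overlap by at least 1 base. The sequences below are from the GENCODE transcripts on GRCm38 (mm10), written 5′ to 3′ on the strand of the gene. The longest overlap joins mt-Atp8 and mt-Atp6, which share 43 bases (chrM:7927-7969, plus strand), shown with the start codon of mt-Atp6 and the stop codon of mt-Atp8 in capitals. The end of mt-Nd4l (chrM:10144-10173, plus strand) shares its last 7 bases, in capitals, with the start of mt-Nd4. The ends of mt-Nd5 (chrM:13536-13565, plus strand) and mt-Nd6 (chrM:13552-13581, minus strand) face each other from opposite strands and are complementary over 14 bases, in capitals. The stop codon of mt-Co1 (last 30 bases, chrM:6843-6872, plus strand) lies opposite the last 3 bases of the serine tRNA gene mt-Ts1 (chrM:6870-6938, minus strand), both in capitals.
mt-Atp8 and mt-Atp6, shared bases: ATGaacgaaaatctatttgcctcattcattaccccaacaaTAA
mt-Nd4l, last 30 bases: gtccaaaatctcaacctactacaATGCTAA
mt-Nd5, last 30 bases: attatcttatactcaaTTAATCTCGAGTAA
mt-Nd6, last 30 bases: tttattattatcgagaTTACTCGAGATTAA
mt-Co1, last 30 bases: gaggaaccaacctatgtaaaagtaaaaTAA
mt-Ts1, whole gene: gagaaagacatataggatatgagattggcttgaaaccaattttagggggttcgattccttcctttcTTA
The strand setting of the authors' quantification is not given in the sources used here, so reads of opposite strands at 1 place cannot be told apart. This holds for mt-Nd5 and mt-Nd6 in their overlap, and for mt-Ts1 and any mt-Co1 RNA that runs past its stop codon. It also holds over the whole length of mt-Nd6, mt-Te and the other minus-strand genes for any plus-strand RNA that runs across them.

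A near-identical copy of part of the mitochondrial genome is annotated as 7 pseudogenes on chromosome 1 from 24611535 to 24616197 (minus strand, GRCm38). Aligned to the chrM genes, they had no mismatch to mt-Co2, mt-Co3, mt-Atp6, mt-Nd3 and mt-Nd4l over at least 98.3% of each gene, or to 63.6% of mt-Nd4, and 1 mismatch to 31.3% of mt-Co1. How reads that match both places were assigned is not given in the sources used here, so the levels of these 7 genes are less certain. The other 6 protein-coding genes, mt-Nd1, mt-Nd2, mt-Nd5, mt-Nd6, mt-Cytb and mt-Atp8, have none among these 7 pseudogenes. On chrM, however, mt-Atp8 lies between mt-Co2 and mt-Atp6, whose pseudogenes leave a gap between 24614651 and 24614885. This gap was not aligned, so the level of mt-Atp8 may be as uncertain as theirs.

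Levels of the 13 mRNAs differed widely and kept nearly the same order in every library. The order of mean TPM over the 6 libraries ran from mt-Co1 (13235) through mt-Co3 (7709), mt-Atp6 (6479), mt-Co2 (5961), mt-Nd1 (5478), mt-Cytb (5241), mt-Atp8 (3894), mt-Nd4 (3170), mt-Nd2 (2806), mt-Nd4l (1645), mt-Nd5 (694) and mt-Nd3 (483) to mt-Nd6 (98.0). Only mt-Co1 at the top and mt-Nd6 at the bottom stood clear of their neighbour in this order, since all other neighbours overlapped across libraries. Spearman's rho between the gene orders of 2 libraries lay between 0.89 and 1.0 over the 15 pairs, across 13 genes that share their libraries. All 13 passed the filter on low values (1 TPM or more in no fewer than 2 libraries), with a mean read depth of 193 to 43583 per base.

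**Figure D1:**
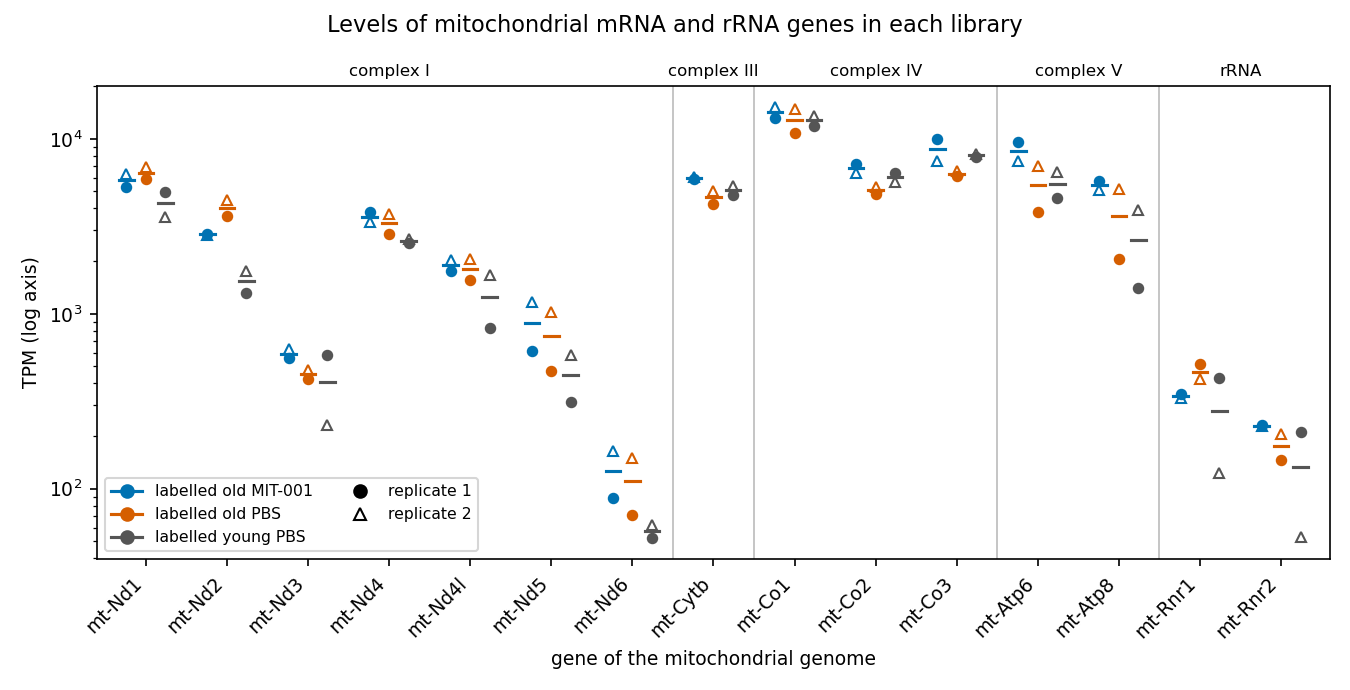
TPM (log axis) of the 13 mRNA and 2 rRNA genes of the mitochondrial genome in each of the 6 libraries, grouped by respiratory complex, with old MIT-001 left, old PBS in the middle and young PBS right; lines are means of 2 libraries. The 3 groups are fully apart at mt-Nd2 and mt-Co2 among the mRNAs and overlap in at least 1 pair at each other mRNA.

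The 7 complex I genes encode the core of the membrane arm of NADH dehydrogenase, which pumps protons as NADH is oxidised. mt-Nd2 (Gene ID 17717, chrM:3914-4951, plus strand) had 2875 and 2802 TPM in old MIT-001 libraries, 3636 and 4461 TPM in old PBS libraries and 1319 and 1745 TPM in young PBS libraries. Its 3 groups were fully apart, with old PBS highest and young PBS lowest, and mt-Co2 was the only other mRNA with no overlap between any of the groups. mt-Nd1 (17716, chrM:2751-3707) had 5283 and 6283 TPM in old MIT-001 libraries, 5887 and 6871 TPM in old PBS libraries and 4990 and 3552 TPM in young PBS libraries. mt-Nd4 (17719, chrM:10167-11544) had 3816 and 3365 TPM in old MIT-001 libraries, 2867 and 3733 TPM in old PBS libraries and 2549 and 2687 TPM in young PBS libraries. For both genes the young PBS libraries were the 2 lowest of the 6.

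mt-Nd4l (17720, chrM:9877-10173), which is translated from the same RNA as mt-Nd4, had 1746 and 2032 TPM in old MIT-001 libraries, 1555 and 2043 TPM in old PBS libraries and 834 and 1662 TPM in young PBS libraries. mt-Nd5 (17721, chrM:11742-13565) had 610 and 1170 TPM in old MIT-001 libraries, 470 and 1021 TPM in old PBS libraries and 315 and 579 TPM in young PBS libraries. The libraries of a group differed widely at mt-Nd5, and old PBS and young PBS overlapped at both genes. mt-Nd3 (17718, chrM:9459-9806) had 557 and 628 TPM in old MIT-001 libraries, 424 and 478 TPM in old PBS libraries and 583 and 231 TPM in young PBS libraries. mt-Nd6 (17722, chrM:13552-14070, minus strand), the only mRNA encoded on the minus strand, had 88.0 and 165 TPM in old MIT-001 libraries, 70.7 and 150 TPM in old PBS libraries and 52.5 and 62.2 TPM in young PBS libraries. The young PBS libraries held the lowest value of both genes, and for mt-Nd3 also the second-highest.

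mt-Cytb (17711, chrM:14145-15288) encodes cytochrome b, the only complex III subunit made in mitochondria. Its levels were 5925 and 6085 TPM in old MIT-001 libraries, 4258 and 5027 TPM in old PBS libraries and 4791 and 5358 TPM in young PBS libraries. Both old MIT-001 values lay above all others, and old PBS and young PBS overlapped.

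The 3 complex IV genes encode the catalytic core of cytochrome c oxidase, which passes electrons to oxygen. mt-Co1 (17708, chrM:5328-6872), whose protein holds the site where oxygen is reduced, had 13210 and 15166 TPM in old MIT-001 libraries, 10774 and 14814 TPM in old PBS libraries and 11887 and 13561 TPM in young PBS libraries. mt-Co2 (17709, chrM:7013-7696), whose protein takes electrons from cytochrome c, had 7208 and 6398 TPM in old MIT-001 libraries, 4848 and 5290 TPM in old PBS libraries and 6345 and 5676 TPM in young PBS libraries. mt-Co3 (17710, chrM:8607-9390) had 10002 and 7463 TPM in old MIT-001 libraries, 6137 and 6529 TPM in old PBS libraries and 7918 and 8203 TPM in young PBS libraries. For mt-Co2 and mt-Co3 the old PBS libraries were the 2 lowest of the 6, and for mt-Co2 the old MIT-001 libraries were the 2 highest, while for mt-Co1 all groups overlapped.

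The 2 complex V genes encode parts of the membrane sector of ATP synthase. mt-Atp6 (17705, chrM:7927-8607), whose protein forms the proton path beside the rotor, had 9533 and 7488 TPM in old MIT-001 libraries, 3826 and 7030 TPM in old PBS libraries and 4574 and 6423 TPM in young PBS libraries. mt-Atp8 (17706, chrM:7766-7969) had 5708 and 5120 TPM in old MIT-001 libraries, 2049 and 5177 TPM in old PBS libraries and 1407 and 3904 TPM in young PBS libraries. In both PBS groups replicate 1 was far below replicate 2, so mt-Atp8 had the widest range of the mRNAs, 4.06-fold between its highest and lowest library, against 1.41-fold for mt-Co1.

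The comparison of old PBS with young PBS contrasts the ages as labelled, without MIT-001, though the oocyte markers did not meet these labels. No mitochondrial transcript passed the test. The 7 complex I mRNAs were on average higher in old PBS libraries, mt-Nd2 most, while the 4 mRNAs of complexes III and IV had log2 fold changes below 0. Mean mt-Nd2 was 4048 ± 584 TPM in old PBS libraries and 1532 ± 301 TPM in young PBS libraries (SD, n = 2 each), a log2 fold change of 1.41 ± 0.35 (SE) with a limma adjusted p of 0.212.

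Of the 30 members tested, 0 were called by limma at an adjusted p below 0.05, where 0.0364% of all 16473 genes were called. At an unadjusted p below 0.05, 5 members were higher and 0 lower, against 14.6% and 3.55% of all genes. These were mt-Nd2 (unadjusted p 0.00665 in limma) and the tRNA genes mt-Te, mt-Tc, mt-Ti and mt-Ty, the last 3 named after their values were seen. Of the 13 mRNAs, 8 had fold changes above 0 (7 after centring each library on its median and 10 after quantile normalization), with a median of 0.32 against 0.23 over all genes tested. Libraries did not overlap for 4 higher mRNAs (mt-Nd1, mt-Nd2, mt-Nd4 and mt-Nd6) and for 2 lower ones (mt-Co2 and mt-Co3), where 38.1% of all genes were higher and 11% lower without overlap. mt-Co3 had a log2 fold change of -0.35 ± 0.47 and mt-Co2 of -0.24 ± 0.42.

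The absence of calls rested on single libraries. Without young PBS replicate 1, 5 members passed limma's test in the higher direction, among 948 genes in all (5.75%): mt-Nd2 (log2 fold change 1.21 ± 0.22, adjusted p 0.0487), mt-Nd3 (0.96 ± 0.17, 0.0479), mt-Rnr1 (1.91 ± 0.18, 0.0367), mt-Rnr2 (1.69 ± 0.23, 0.0392) and mt-Te (1.90 ± 0.22, 0.0367). Without young PBS replicate 2, only mt-Te passed (3.58 ± 0.23, 0.0414), among 14 genes (0.085%). Without replicate 2, mt-Nd3 and mt-Rnr2 had fold changes of -0.37 and -0.29, opposite in sign to those without replicate 1, and mt-Rnr1 had 0.11. In both refits the lone young PBS library was assumed to vary like the other groups. mt-Nd2 kept a fold change of 1.21 to 1.61 whichever library was left out.

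The comparison of old MIT-001 with old PBS contrasts MIT-001 with PBS at the older age as labelled. No mitochondrial transcript passed the test here either. The mRNAs of complexes III, IV and V were on average higher in old MIT-001 libraries, and mt-Nd2 and mt-Nd1 lower. The highest fold changes belonged to complex V, with mt-Atp8 at 0.73 ± 0.67 and mt-Atp6 at 0.70 ± 0.52 (limma adjusted p 0.806 and 0.723). Without old PBS replicate 1 they were 0.063 and 0.27, below the 0.36 of mt-Co2, and without old PBS replicate 2 they were 1.40 and 1.14. Mean mt-Atp6 was 8511 ± 1446 TPM in old MIT-001 libraries and 5428 ± 2266 TPM in old PBS libraries (SD, n = 2 each).

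In this comparison 0 of 30 members were called by limma, where 0.0182% of all genes were called. At an unadjusted p below 0.05, 0 members were higher and 1 was lower, the tyrosine tRNA gene mt-Ty, named after its values were seen, against 7.45% and 4.36% of all genes. Of the 13 mRNAs, 11 had fold changes above 0 (10 after median centring, and 7 after scaling each library to its own mitochondrial mRNA total), with a median of 0.29 against 0.035 over all genes. Libraries did not overlap for 5 higher mRNAs (mt-Co2, mt-Co3, mt-Atp6, mt-Nd3 and mt-Cytb) and 1 lower mRNA (mt-Nd2), where 27.2% of all genes were higher and 24.2% lower without overlap. mt-Nd2 had a fold change of -0.50 ± 0.35, with an adjusted p of 0.693 in limma. The median of the 13 mRNAs was -0.059 without old PBS replicate 1 and 0.49 without old PBS replicate 2, so its direction depended on old PBS replicate 1.

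Old MIT-001 was also set against young PBS; this comparison shares its libraries with both others and differs in age and treatment at once. No mitochondrial transcript passed. All 13 mRNAs had fold changes above 0 with TPM as deposited, 12 with FPKM and 9 either after median centring or after scaling to the mitochondrial mRNA total. The highest were mt-Atp8 at 1.21 ± 0.67, mt-Nd6 at 1.06 ± 0.44, mt-Nd5 at 0.98 ± 0.53 and mt-Nd2 at 0.90 ± 0.35, with limma adjusted p of 0.417, 0.284, 0.409 and 0.255. Mean mt-Nd6 was 126 ± 54.2 TPM in old MIT-001 libraries and 57.3 ± 6.82 TPM in young PBS libraries (SD, n = 2 each).

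Here too 0 of 30 members were called by limma, where 0% of all genes were called, and 5 members were higher and 0 lower at an unadjusted p below 0.05, against 17.1% and 0.813% of all genes. The 5 were mt-Nd2 and the tRNA genes mt-Te, mt-Tc, mt-Ti and mt-Tk, the last 3 again named after their values were seen. The median fold change of the mRNAs was 0.64, against 0.24 over all genes, and it was 0.23 after median centring, which moved the median of all genes to -0.17. Libraries did not overlap for 10 higher mRNAs and for 0 lower ones, where 37.3% of all genes were higher and 6.56% lower without overlap. The 3 mRNAs that overlapped were mt-Co1, mt-Co3 and mt-Nd3.

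**Figure D2:**
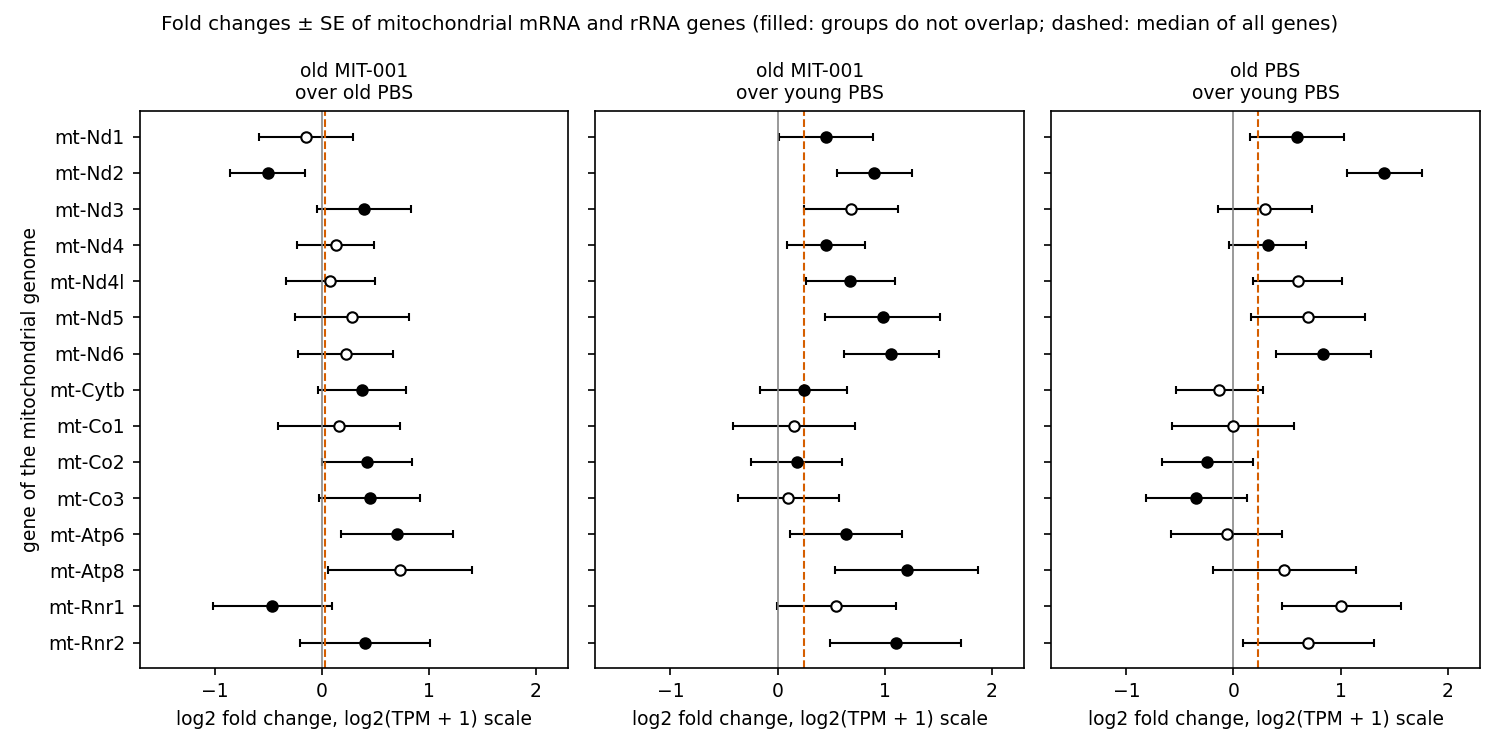
Fitted log2 fold changes of the 13 mRNA and 2 rRNA genes on the log2(TPM + 1) scale, with standard errors, for old MIT-001 over old PBS (left), old MIT-001 over young PBS (middle) and old PBS over young PBS (right). The dashed line is the median of all 16473 genes tested (0.035, 0.24 and 0.23), filled points mark genes whose libraries do not overlap between the groups, and mt-Nd2 lies above 0 in the right and middle panels and below 0 in the left panel.

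As a share of the whole library, the 37 genes took up 6.87% and 6.63% of TPM in old MIT-001 libraries, 4.86% and 6.47% in old PBS libraries and 4.98% and 5.51% in young PBS libraries. Both old MIT-001 libraries lay above all 4 PBS libraries, old PBS replicate 2 coming close, and the PBS groups overlapped. Means were 6.75% ± 0.175 in old MIT-001 libraries, 5.67% ± 1.14 in old PBS libraries and 5.24% ± 0.374 in young PBS libraries (SD, n = 2 each). In an exact two-sided permutation test old MIT-001 differed from old PBS and from young PBS with p = 0.333, the smallest that 2 libraries against 2 can give, and old PBS from young PBS with p = 1.0. The adjusted values over 15 share tests were 0.455, 0.455 and 1.0.

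The same share can be taken of aligned bases, which does not scale with gene length. It was 2.75% and 2.81% in old MIT-001 libraries, 2.11% and 2.74% in old PBS libraries and 2.61% and 2.37% in young PBS libraries. Old MIT-001 remained above all PBS libraries, while the mean of old PBS, 0.424 percentage points above young PBS by TPM, was below it by bases, with a difference of -0.0631 percentage points. Immediate early genes, which respond to tissue handling, summed to 2119 and 3374 TPM in old MIT-001 libraries, 919 and 553 TPM in old PBS libraries and 2252 and 1288 TPM in young PBS libraries, with Fos and Jun the highest members over the list of 9, and none of the 9 at 0 in all libraries. Surface epithelium genes were highest in old MIT-001 libraries: the 7 genes summed to 622 and 662 TPM in old MIT-001 libraries, 167 and 160 TPM in old PBS libraries and 250 and 355 TPM in young PBS libraries. Of the PBS libraries, old PBS replicate 2 had the highest share and the lowest sum of both lists. All 7 surface epithelium genes were higher in old MIT-001 than in old PBS at an unadjusted p below 0.05 in limma, against 7.45% of all genes. Of them, 1 passed limma's test at an adjusted p of 0.0343, where 0.0182% of all genes passed. Other lists shifted as widely in this comparison. At the same unadjusted threshold, 8 of 9 immediate early genes and 6 of 8 macrophage genes were higher. Lower were 8 of 10 granulosa cell genes and 9 of 10 oocyte genes, against 4.36% of all genes. The 6 oviduct genes summed to 736 and 592 TPM in old MIT-001 libraries, 58.8 and 59.3 TPM in old PBS libraries and 137 and 174 TPM in young PBS libraries. The part of handling or of these cells in the share was not tested. In bulk tissue, fewer cells of a type and less RNA per cell cannot be told apart.

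**Figure D3:**
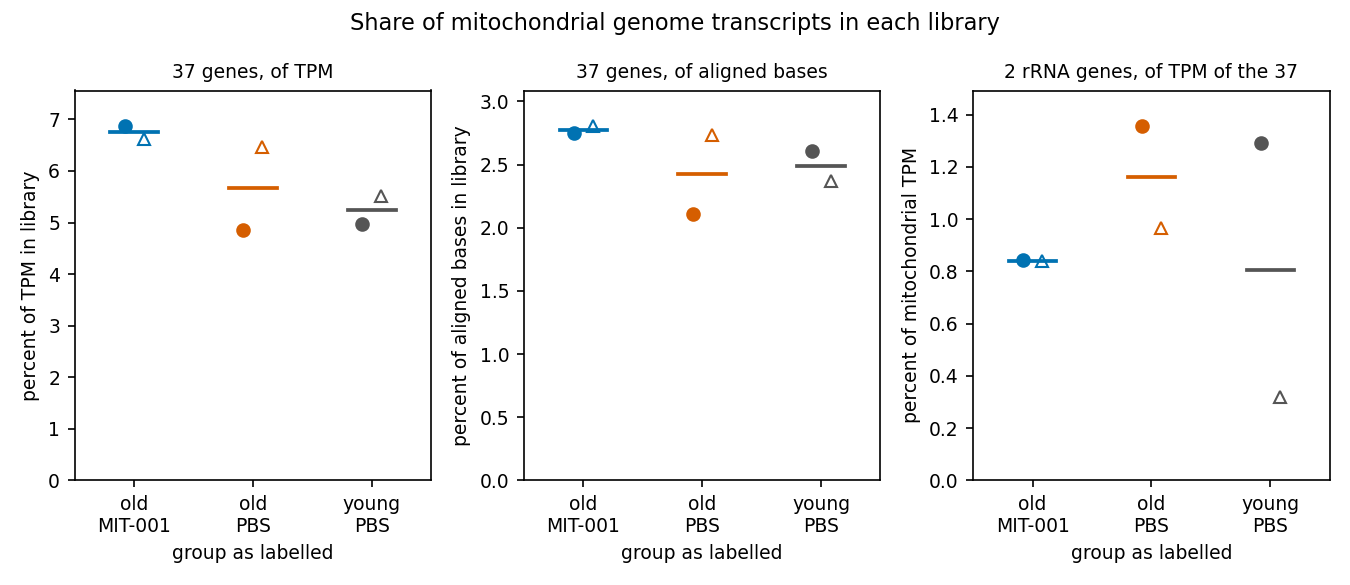
Share of the 37 mitochondrial genes in each library by TPM (left) and by aligned bases (middle), and share of the 2 rRNA genes within the mitochondrial TPM (right), for old MIT-001, old PBS and young PBS; circles are replicate 1, open triangles replicate 2, and lines means. Both old MIT-001 libraries are highest in the left and middle panels, and young PBS replicate 2 is lowest in the right panel at 0.320%.

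The makeup of the mitochondrial mRNA pool does not depend on how a library is scaled. Complex I mRNAs took a larger part of it in old PBS libraries, and complex IV mRNAs in young PBS libraries, than in the other groups. This measure was chosen after the data were seen. Complex I mRNAs made up 22.5% and 25.6% of mitochondrial mRNA TPM in old MIT-001 libraries, 31.9% and 29.95% in old PBS libraries and 22.4% and 19.6% in young PBS libraries. The old PBS libraries held the highest complex I shares and the young PBS libraries the lowest, though the lower old MIT-001 library was close to the higher young PBS library. Complex IV mRNAs made up 45.7% and 45.2% in old MIT-001 libraries, 46.5% and 42.5% in old PBS libraries and 54.98% and 51.2% in young PBS libraries. The young PBS libraries held the highest complex IV shares, and the old groups overlapped.

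The share of the complex III gene mt-Cytb was 8.90% and 9.48% in old MIT-001 libraries, 9.10% and 8.03% in old PBS libraries and 10.1% and 9.99% in young PBS libraries. Complex V mRNAs made up 22.9% and 19.6% in old MIT-001 libraries, 12.6% and 19.5% in old PBS libraries and 12.6% and 19.3% in young PBS libraries. In each PBS group 1 library was near the low value and the other near the high one, so the PBS groups overlapped for complex V. For complex I the difference was 9.91 percentage points between old PBS and young PBS, -6.84 points between old MIT-001 and old PBS and 3.07 points between old MIT-001 and young PBS. Each of these 3, and the complex IV differences from young PBS (-8.56 points for old PBS and -7.59 points for old MIT-001), had p = 0.333 by the exact two-sided permutation test, the smallest possible, and an adjusted p of 0.455 over the 15 share tests.

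Among complex I genes, mt-Nd2 and mt-Nd1 differed most in share between old PBS and both other groups, with 4.43 and 3.22 percentage points between old PBS and young PBS and -3.10 and -2.91 points between old MIT-001 and old PBS. mt-Nd2 alone was 4.32% and 4.37% of mitochondrial mRNA TPM in old MIT-001 libraries, 7.77% and 7.12% in old PBS libraries and 2.77% and 3.25% in young PBS libraries. mt-Nd1 was 7.94% and 9.79% in old MIT-001 libraries, 12.6% and 10.97% in old PBS libraries and 10.5% and 6.62% in young PBS libraries. Neither gene has a pseudogene in the chromosome 1 copy, whereas the 3 complex IV genes all do, in whole or in part. Granulosa cell genes, which mark the cells around growing oocytes, were also highest in old PBS libraries: the 10 genes summed to 2590 and 3797 TPM in old MIT-001 libraries, 7302 and 9229 TPM in old PBS libraries and 3305 and 3040 TPM in young PBS libraries, none at 0 in all libraries. The part of cell makeup in the complex I share was not tested.

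**Figure D4:**
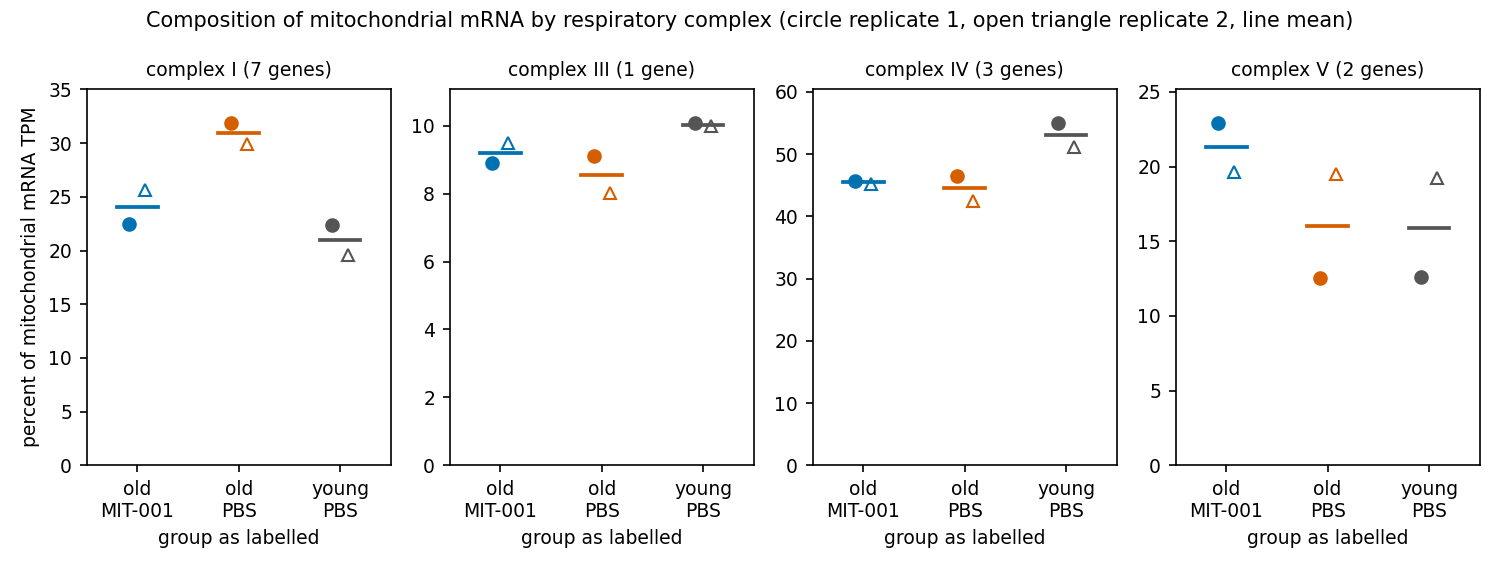
Percent of mitochondrial mRNA TPM that belongs to genes of complex I, III, IV and V in each library of old MIT-001, old PBS and young PBS; circles are replicate 1, open triangles replicate 2, and lines means. The old PBS libraries are highest for complex I (31.9% and 29.95%), the young PBS libraries for complex IV (54.98% and 51.2%), and for complex V both PBS groups hold 1 low and 1 high library.

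The 2 rRNA genes were below every mRNA but mt-Nd6 in mean TPM. mt-Rnr1 (17724, chrM:70-1024), the rRNA of the small mitochondrial ribosomal subunit, had 347 and 329 TPM in old MIT-001 libraries, 513 and 421 TPM in old PBS libraries and 430 and 123 TPM in young PBS libraries. mt-Rnr2 (17725, chrM:1094-2675), the rRNA of the large subunit, had 232 and 227 TPM in old MIT-001 libraries, 146 and 205 TPM in old PBS libraries and 212 and 52.9 TPM in young PBS libraries. Young PBS replicate 2 was lowest at both by a wide margin, while the old MIT-001 libraries were nearly equal. Libraries came from an mRNA kit, so the rRNA values are what remained after that preparation and not the cells' rRNA content.

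In old PBS against young PBS the rRNA fold changes were 1.01 ± 0.56 for mt-Rnr1 and 0.70 ± 0.61 for mt-Rnr2 (limma adjusted p 0.385 and 0.583). In old MIT-001 against old PBS they pointed opposite ways, at -0.46 ± 0.56 and 0.41 ± 0.61 (adjusted p 0.878 and 0.911), and neither group overlapped the other at either gene. The ratio of mt-Rnr2 to mt-Rnr1 was 0.669 and 0.691 in old MIT-001 libraries, 0.285 and 0.487 in old PBS libraries and 0.493 and 0.429 in young PBS libraries. Both old MIT-001 libraries were above the 4 PBS libraries in this ratio.

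The tRNA genes are 59 to 75 bases long, 14 on the plus and 8 on the minus strand, and 15 of the 22 passed the filter. Only 5 had a mean of 10 TPM or more, 10 lay between 1 and 10 TPM and 7 below 1 TPM, and 9 were listed at 0 in at least 1 library. mt-Ts1, the serine tRNA gene opposite the end of mt-Co1, held 78.7% to 90.5% of all tRNA TPM in each library. Its level was 1404 and 1269 TPM in old MIT-001 libraries, 939 and 1167 TPM in old PBS libraries and 1431 and 1106 TPM in young PBS libraries. As a ratio to mt-Co1 it was 0.106 and 0.0837 in old MIT-001 libraries, 0.0871 and 0.0788 in old PBS libraries and 0.120 and 0.0816 in young PBS libraries. The groups overlapped in this ratio.

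mt-Tl1 (17735, chrM:2676-2750, plus strand), a leucine tRNA gene between mt-Rnr2 and mt-Nd1, was next in level. It had 55.9 and 112 TPM in old MIT-001 libraries, 39.2 and 77.9 TPM in old PBS libraries and 63.9 and 51.5 TPM in young PBS libraries, with overlap in every pair of groups. mt-Te (17729, chrM:14071-14139, minus strand), the glutamic acid tRNA gene next to mt-Nd6 on the same strand, stood out by its range, 15.3-fold between libraries. It had 39.9 and 48.5 TPM in old MIT-001 libraries, 70.2 and 85.6 TPM in old PBS libraries and 5.58 and 20.1 TPM in young PBS libraries. As at mt-Nd2, all 3 groups were apart, in the same order.
mt-Tl1, whole gene: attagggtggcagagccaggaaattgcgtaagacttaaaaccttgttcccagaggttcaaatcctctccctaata
mt-Te, whole gene: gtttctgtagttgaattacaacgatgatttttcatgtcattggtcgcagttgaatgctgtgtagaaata
The log2 fold change of mt-Te was 2.74 ± 0.53 in old PBS against young PBS (limma adjusted p 0.205), -0.80 ± 0.53 in old MIT-001 against old PBS (0.667) and 1.93 ± 0.53 in old MIT-001 against young PBS (0.162). The sequence of mt-Te is shown because it is the tRNA gene with the smallest limma adjusted p in the first of these. mt-Tc, the cysteine tRNA gene, was listed at 0 in both young PBS libraries and at 1.96 and 4.04 TPM in old MIT-001 libraries and 3.03 and 2.20 TPM in old PBS libraries, so no fold change is given. Mature tRNAs are shorter than the fragments that such libraries usually hold, and tRNA cannot be told apart here from uncut precursor RNA. At minus-strand genes such as mt-Te, this includes precursor RNA of the plus strand.

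Genes that lie near each other, on the same or on opposite strands, were compared as ratios, which also do not depend on library scaling. mt-Atp8 over mt-Atp6, 2 genes read from one mRNA, was 0.599 and 0.684 in old MIT-001 libraries, 0.535 and 0.736 in old PBS libraries and 0.308 and 0.608 in young PBS libraries. mt-Nd4l over mt-Nd4, also read from one mRNA, was 0.458 and 0.604 in old MIT-001 libraries, 0.543 and 0.547 in old PBS libraries and 0.327 and 0.618 in young PBS libraries. At both pairs young PBS replicate 1 was lowest and the groups overlapped. Ratios of genes on a shared mRNA thus differed between libraries of 1 group.

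mt-Nd2 over mt-Nd1 was 0.544 and 0.446 in old MIT-001 libraries, 0.618 and 0.649 in old PBS libraries and 0.264 and 0.491 in young PBS libraries. The old PBS libraries were highest, and old MIT-001 and young PBS overlapped. mt-Nd6 over mt-Nd5, an opposite-strand pair, was 0.144 and 0.141 in old MIT-001 libraries, 0.151 and 0.147 in old PBS libraries and 0.167 and 0.107 in young PBS libraries. The 4 old libraries lay between the 2 young PBS libraries.

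**Figure D5:**
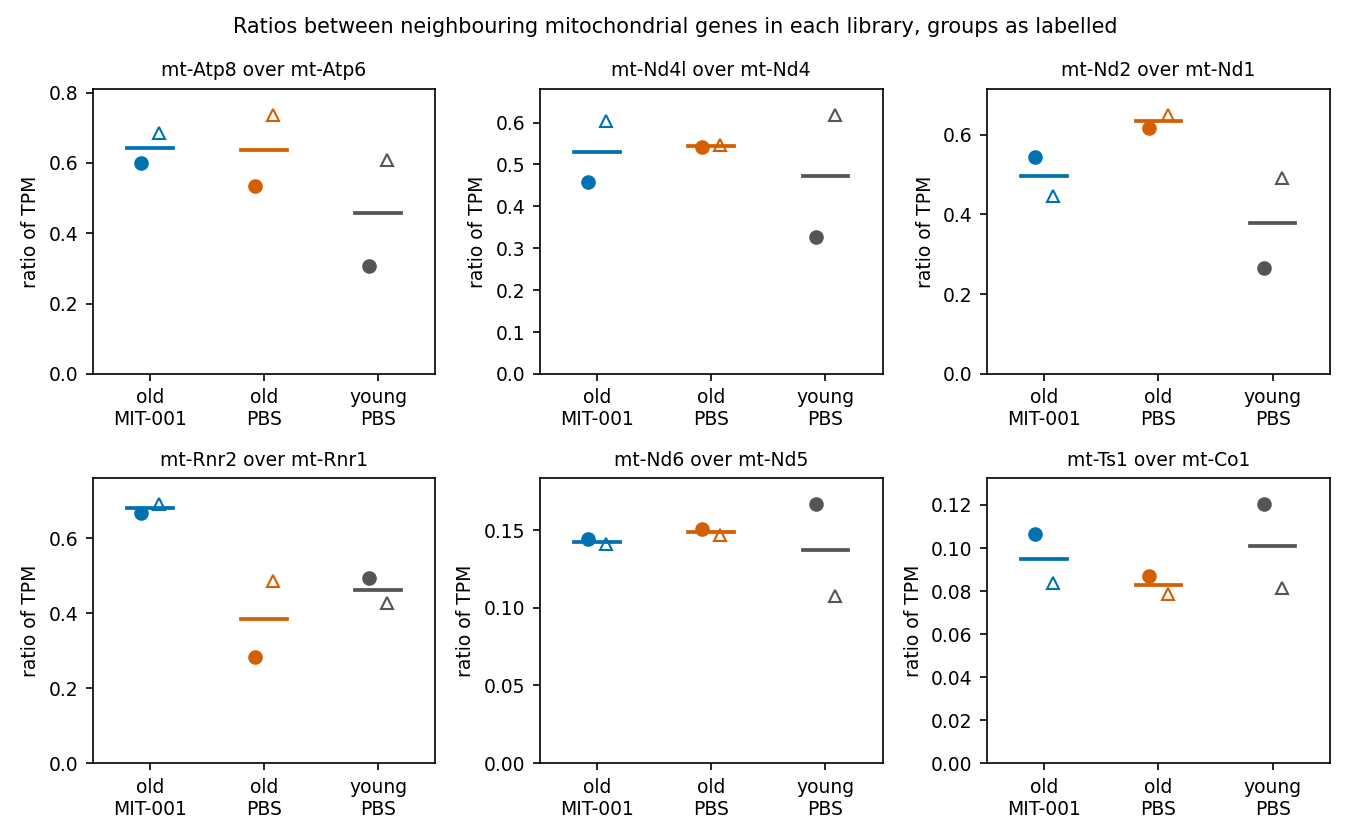
Ratios of TPM between 6 pairs of mitochondrial genes in each library of old MIT-001, old PBS and young PBS; circles are replicate 1, open triangles replicate 2, and lines means. Old MIT-001 is highest in mt-Rnr2 over mt-Rnr1 (0.669 and 0.691) and old PBS in mt-Nd2 over mt-Nd1 (0.618 and 0.649), while young PBS has the widest spread in mt-Atp8 over mt-Atp6 (0.308 and 0.608).

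Nuclear subunits of the same complexes showed no call in any comparison by limma, and their fold changes lay mostly below 0. For complex I, 28 of 36 nuclear subunits were below 0 in old PBS against young PBS (median -0.10), 26 of 36 in old MIT-001 against old PBS (-0.11) and 31 of 36 in old MIT-001 against young PBS (-0.19), against medians over all genes of 0.23, 0.035 and 0.24. At an unadjusted p below 0.05, 1 of the 36 was lower and 0 higher in each comparison, where 3.55%, 4.36% and 0.813% of all genes were lower. Of the named subunits, Ndufb10, Ndufs3 and Ndufs7 had fold changes of -0.46 ± 0.20, -0.49 ± 0.19 and -0.46 ± 0.22 in old MIT-001 against young PBS (limma adjusted p 0.3001, 0.252 and 0.333). The nuclear genes of complexes III, IV and V had medians of -0.18, -0.18 and -0.14 in old PBS against young PBS, -0.22, -0.11 and -0.19 in old MIT-001 against old PBS, and -0.28, -0.30 and -0.23 in old MIT-001 against young PBS, with 0 members past an unadjusted p of 0.05 in either direction. The members of smallest p were Uqcr11, Uqcrc1, Uqcrfs1 and Uqcrq of complex III, Cox4i1, Cox5b, Cox6a1 and Cox8a of complex IV and Atp5d, Atp5g1, Atp5g3 and Atp5o of complex V. Of these, Cox6a1 had 782 and 756 TPM in old MIT-001 libraries, 1081 and 994 TPM in old PBS libraries and 1067 and 1241 TPM in young PBS libraries, so that old MIT-001 was lowest.

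Per gene, mitochondrial subunits were more abundant than nuclear ones in each complex and library. Mean TPM per mitochondrial gene over mean TPM per nuclear gene was 12.0 and 13.4 for complex I in old MIT-001 libraries, 10.3 and 14.4 in old PBS libraries and 6.79 and 7.48 in young PBS libraries. The 4 old libraries lay above both young PBS libraries. For complex IV the ratio was 19.5 and 18.8 in old MIT-001 libraries, 12.0 and 16.9 in old PBS libraries and 12.5 and 16.2 in young PBS libraries, and for complex V 15.3 and 12.8, 4.95 and 10.9, and 4.69 and 9.11 in the same groups. For complex III it was 20.5 and 21.8 in old MIT-001 libraries, 13.5 and 17.0 in old PBS libraries and 13.2 and 17.4 in young PBS libraries. In complexes III, IV and V both old MIT-001 libraries were above all PBS libraries, and the PBS groups overlapped. No test was made of these ratios.

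Nuclear genes that make, cut, stabilise and translate mitochondrial RNA averaged 16.8 to 50.3 TPM per gene over the 5 lists and also had 0 calls by limma. Of 19 genes of mtDNA transcription and copying, 17 were above 0 in old PBS against young PBS (median 0.45), 6 in old MIT-001 against old PBS (-0.10) and 14 in old MIT-001 against young PBS (0.20), against medians over all genes of 0.23, 0.035 and 0.24, so the last of these medians lay below that of all genes. At an unadjusted p below 0.05, 2, 0 and 2 of the 19 were higher and 0 lower, where 14.6%, 7.45% and 17.1% of all genes were higher. Tfb2m, the factor that opens the promoters of the mitochondrial genome, had 24.5 and 27.8 TPM in old MIT-001 libraries, 22.2 and 28.1 TPM in old PBS libraries and 14.8 and 12.8 TPM in young PBS libraries. Its fold change was 0.81 ± 0.24 in old PBS against young PBS (adjusted p 0.224 in limma) and 0.88 ± 0.24 in old MIT-001 against young PBS (0.162), and both young PBS libraries were below the 4 old ones. The DNA ligase gene Lig3, the methyltransferase gene Tfb1m and the termination-factor family gene Mterf3 had fold changes of 0.69 ± 0.24, 0.68 ± 0.28 and 0.85 ± 0.42 in old PBS against young PBS (limma adjusted p 0.246, 0.282 and 0.346), and Mterf3 had 1.34 ± 0.42 in old MIT-001 against young PBS (0.188).

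Among 6 genes of RNA cleavage, medians were 0.37, -0.29 and 0.055 in old PBS against young PBS, old MIT-001 against old PBS and old MIT-001 against young PBS, against the 0.23, 0.035 and 0.24 of all genes. Trmt10c, a subunit of mitochondrial RNase P, had 20.7 and 20.4 TPM in old MIT-001 libraries, 11.7 and 22.6 TPM in old PBS libraries and 12.4 and 5.40 TPM in young PBS libraries. Trnt1, which adds the CCA end of tRNAs, had a fold change of 1.11 ± 0.44 in old MIT-001 against young PBS (limma adjusted p 0.267), and the tRNA-end nuclease gene Elac2 and Fastkd5 had -0.23 ± 0.24 and 0.22 ± 0.27.

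Among 14 genes of RNA stability, polyadenylation and decay, 12 were above 0 in old PBS against young PBS (median 0.44), 5 in old MIT-001 against old PBS (-0.040) and 12 in old MIT-001 against young PBS (0.29), where all genes had medians of 0.23, 0.035 and 0.24. Lrpprc, which holds mitochondrial mRNAs stable, had 24.5 and 27.7 TPM in old MIT-001 libraries, 31.6 and 47.7 TPM in old PBS libraries and 19.8 and 23.2 TPM in young PBS libraries. Its groups did not overlap, with fold changes of 0.83 ± 0.27 in old PBS against young PBS (limma adjusted p 0.229) and -0.56 ± 0.27 in old MIT-001 against old PBS (0.495). The RNA-granule gene Grsf1 and the helicase gene Supv3l1 of the degradosome had 0.50 ± 0.19 and 0.55 ± 0.22 in old PBS against young PBS (0.262 and 0.271), and its nuclease partner Pnpt1 had 0.95 ± 0.31 in old MIT-001 against young PBS (0.197).

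The 18 genes of rRNA and tRNA modification had medians of 0.21, -0.14 and 0.038 over the same 3 comparisons, and the 11 translation factors 0.28, -0.20 and 0.012, against the 0.23, 0.035 and 0.24 of all genes. Mrm2, a methyltransferase of the large rRNA, had 11.3 and 11.8 TPM in old MIT-001 libraries, 18.2 and 20.3 TPM in old PBS libraries and 11.2 and 16.5 TPM in young PBS libraries, with a fold change of -0.69 ± 0.27 in old MIT-001 against old PBS (limma adjusted p 0.402). The tRNA-modifying enzyme genes Nsun3 and Trmt5 had 0.92 ± 0.33 and 0.62 ± 0.28 in old MIT-001 against young PBS (limma adjusted p 0.226 and 0.316), and Gtpbp3 had -0.47 ± 0.22 in old MIT-001 against old PBS (0.487). The initiation factor gene Mtif2 and Taco1, an activator of mt-Co1 translation, had 0.64 ± 0.23 and 0.80 ± 0.25 in old PBS against young PBS (0.249 and 0.225). The elongation factor gene Tufm had -0.53 ± 0.24 and the insertase gene Oxa1l -0.20 ± 0.22 in old MIT-001 against old PBS (0.464 and 0.865).

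Markers of other cells also differed between libraries, some between the groups and some within a group. The 8 macrophage genes summed to 369 and 347 TPM in old MIT-001 libraries, 134 and 156 TPM in old PBS libraries and 800 and 805 TPM in young PBS libraries, and the 6 plasma cell genes to 1188 and 240, 145 and 140, and 1764 and 399 TPM in the same groups. In old PBS against young PBS, 2 of the 8 macrophage genes and 1 of the 6 plasma cell genes passed limma's test. These were lower in old PBS libraries. Of the 10 granulosa cell genes, 1 passed and was higher there, where 0.0364% of all genes passed. The 7 genes of theca and luteal cells summed to 23453 and 22124 TPM in old MIT-001 libraries, 33565 and 31376 TPM in old PBS libraries and 19829 and 39481 TPM in young PBS libraries. Adipocyte genes ranged from 29.03 to 387 TPM over all libraries, smooth muscle genes from 419 to 1810 and erythroid genes from 1700 to 4165 TPM. Part of this spread lay within groups. Adipocyte genes summed to 387 and 60.0 TPM in young PBS libraries, and smooth muscle genes to 1810 and 564 TPM in old MIT-001 libraries. In each list some library detected each gene, and the part of these cells in the mitochondrial values was not tested.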

How the data were processed

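Total RNA of mouse ovary was extracted with TRIzol and made into libraries with a SMARTer mRNA kit, per the labels' protocols. The submitters' processing notes list Trimmomatic for trimming, HISAT2 for alignment, StringTie for quantification and the mm10 build; versions, annotation, strand setting and the handling of multiply mapped reads are not stated in the sources available here. Per the file headers, each table holds TPM as computed by the authors, an abundance scaled for length to a constant library total. Deposited beside it is FPKM, which differs from TPM by 1 factor per library. The third deposited measure is coverage, a signal of average read depth along a gene; it gave depth and, times length, aligned bases. Without read counts, the only measure of precision is the difference between 2 libraries of a group.

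Repeated gene IDs were summed. Symbols came from a RefSeq table of GRCm38.p6 by Gene ID (98 rows per library unmatched, 0.0145% to 0.0301% of TPM, left out of tests), and chrM names from GENCODE by exact position. The 16473 genes that reached 1 TPM in 2 or more libraries were fitted as log2(TPM + 1) with limma 3.58.1 in R 4.3.3, with 1 mean per group over all 6 libraries, an intensity trend, 3 residual and 3.12 prior degrees of freedom, two-sided tests and Benjamini-Hochberg adjustment over all genes. Calls are adjusted p below 0.05. Fold changes understate changes of low genes. Shares were compared by exact permutation (SciPy 1.17.1), and pseudogenes aligned with Biopython 1.88. The fit was also run on simulated data as a check of the code, and no result here rests on it. Alternatives are FPKM, a smaller pseudocount (0.1), a filter at 5 TPM or none, median centring, quantile normalization, 2 rescaled totals, only the 4 libraries compared, no trend, a replicate block, and leaving out each library. Scaling to mitochondrial mRNA, shares of aligned bases and the complex shares were added after seeing the data.

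Members, gene lists and tests were chosen with earlier results of these data known. Named were each chrM mRNA and rRNA gene, the 3 tRNA genes of highest mean TPM and any called, up to 4 members per pathway list with the smallest unadjusted p over the comparisons, and up to 2 members of highest mean TPM per marker list. 1 gene that this rule names is not reported here.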

Additional observations from a re-analysis of the deposited data

How the results depend on the processing

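Of 810 single-gene values over 45 gene results and their alternatives, 771 kept their direction and side of the threshold, 35 reversed and 4 newly passed it, and the cause was not tested. Of the 35, 18 came from leaving out 1 library and 17 from another scaling or unit. The number of mitochondrial genes called was 0 in every alternative but leaving out 1 library, where it was 0 to 5 in old PBS against young PBS, through the young PBS libraries. Between libraries of equal replicate number, deviations from the group means correlated at 0.0066 to 0.239 over all tested genes. Such correlations cannot exclude that the replicate numbers pair the libraries. The fit with the replicate block gave 0 calls in each comparison. With the block, 3 mRNAs had an unadjusted p below 0.05 in limma in old PBS against young PBS, and 1 without it. In old MIT-001 against young PBS there were 2 with and 1 without it, and in old MIT-001 against old PBS 0 in both fits.

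In old PBS against young PBS, median centring gave -0.025 for mt-Nd3 and 0.00080 for the median of the mRNAs, and quantile normalization gave 0.39 for mt-Atp6 and 0.31 for mt-Cytb. By aligned bases the share differed by -0.0631 points and the complex V share by -0.50 points. Leaving out 1 library gave -0.24 to 0.22 for mt-Co1, -0.26 to 1.21 for mt-Atp8, -0.50 to 0.38 for mt-Atp6, -0.37 to 0.96 for mt-Nd3, -0.29 to 1.69 for mt-Rnr2, 0.10 to 0.51 for the median, -0.383 to 1.23 points for the share and -3.36 to 3.58 points for complex V.

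In old MIT-001 against old PBS, median centring gave -0.014 for mt-Nd4l. Scaling to the mitochondrial mRNA total, an alternative added after seeing the data, gave -0.11 for mt-Co1, -0.19 for mt-Nd4l, -0.14 for mt-Nd4, -0.0450 for mt-Nd6 and 0.015 for the median. Leaving out 1 library gave -0.066 to 0.39 for mt-Co1, -0.12 to 0.28 for mt-Nd4l, -0.059 to 0.32 for mt-Nd4, -0.27 to 0.85 for mt-Nd5, -0.31 to 0.76 for mt-Nd6, -0.059 to 0.49 for the median and -1.02 to 2.94 points for the complex IV share. Each of the low values came without old PBS replicate 1, apart from that of complex IV.

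In old MIT-001 against young PBS, FPKM gave -0.0546 for mt-Co3. Median centring gave -0.26 for mt-Co1, -0.24 for mt-Co2, -0.31 for mt-Co3, -0.17 for mt-Cytb and 0.23 for the median, and scaling to the mitochondrial mRNA total gave -0.21, -0.19, -0.27, -0.13 and 0.27 for the same 5. Leaving out 1 library gave -0.11 to 0.31 for mt-Co3, -0.35 to 1.45 for mt-Rnr1 and 0.42 to 0.64 for the median.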
